A study of Mus musculus with 20 samples.

Results

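Collagens are the trimeric matrix proteins that give skin its strength, and 37 genes that encode their chains were followed in normal mouse skin and in epidermal carcinomas that lack p53. The genes were taken from a list of collagen genes. Each was read from the probesets annotated to it alone, and the probeset with the highest mean over the 20 arrays stood for the gene. All 37 were measured, among 18193 genes in all: 11 encode fibrillar collagens, 8 collagens of basement membranes and their vicinity, 3 collagen VI, 3 short-chain collagens, 9 fibril-associated collagens and 3 transmembrane collagens.

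The samples were 5 skins of wild type mice of 2 months, 7 tumors of Trp53ΔEC mice and 8 tumors of Rb ΔEC; Trp53ΔEC mice, all of the FVB strain. In the tumor-bearing mice a Cre recombinase under the keratin K14 promoter removes the loxP-flanked Trp53 alleles, alone or with the loxP-flanked Rb alleles, from the stratified epithelia, so the stroma keeps both genes. The skin samples carry neither deletion. Tumor-bearing mice have no age in the labels, which leaves tumor and age of the mouse as differences that cannot be told apart. By histology 6 tumors were poorly differentiated carcinomas (2 Trp53ΔEC and 4 Rb ΔEC; Trp53ΔEC), 4 were mixed, with differentiated and undifferentiated areas (3 and 1), and 5 were undifferentiated or spindle cell carcinomas (2 and 3), which are treated together as undifferentiated/spindle. Values are log2 RMA values of Affymetrix arrays, which have no absolute scale, so that levels are compared between samples for the same probeset and not between genes. Differences between groups were tested two-sided with limma, and a gene was called at a Benjamini-Hochberg adjusted p under 0.05 over all genes. The number of arrays limits the precision. Since nothing in the labels ties the tumors to individual mice, p-values here cover only the spread among the samples at hand.

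Each collagen molecule is wound from a trio of chains in which glycine recurs at regular intervals. Fibrillar collagens I, III and V form the fibers of the dermis, whereas collagens II, IX and XI build the thin fibrils of cartilage and of the vitreous. Collagen IV forms the network of basement membranes, with the widespread chains Col4a1 and Col4a2 and the restricted chains Col4a3 to Col4a6. Fibroblasts make most of the dermal collagen, epithelial cells contribute to the basement membrane, and all of these cells are present in whole tissue RNA. In such bulk samples fewer cells of a type and less RNA per cell cannot be told apart.

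The sequences just upstream of Col8a1, Col8a2, Col11a1 and Col9a2 are shown, since these genes had some of the largest differences described here. Promoters were given for 29 of the 37 genes (RefSeq, GRCm38.p6), and each line holds the 120 bases that precede the annotated gene, 5′ to 3′ on the strand of the gene, in lower case. Capitals mark GC boxes (GGGCGG or its reverse complement CCGCCC) and CCAAT boxes (CCAAT or ATTGG). The regions are chr16:57754738-57754857 on the minus strand for Col8a1, chr4:126286674-126286793 on the plus strand for Col8a2, chr3:114030359-114030478 on the plus strand for Col11a1 and chr4:121039446-121039565 on the plus strand for Col9a2.
Col8a1: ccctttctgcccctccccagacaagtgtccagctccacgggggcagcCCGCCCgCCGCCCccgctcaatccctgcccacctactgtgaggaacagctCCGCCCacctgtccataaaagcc
Col8a2: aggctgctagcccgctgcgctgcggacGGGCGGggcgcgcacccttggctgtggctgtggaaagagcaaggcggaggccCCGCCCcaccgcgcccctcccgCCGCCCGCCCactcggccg
Col11a1: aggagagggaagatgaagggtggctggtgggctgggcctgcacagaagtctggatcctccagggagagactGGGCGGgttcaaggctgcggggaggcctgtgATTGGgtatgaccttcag
Col9a2: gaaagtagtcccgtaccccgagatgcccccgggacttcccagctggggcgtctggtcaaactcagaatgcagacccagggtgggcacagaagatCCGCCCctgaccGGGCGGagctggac

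All 4 stretches held at least 1 GC box, with 4 in Col8a2 (a pair of them overlapping), 3 in Col8a1, 2 in Col9a2 and 1 in Col11a1, and the stretch of Col11a1 also held 1 CCAAT box. No TATAAA or TTTATA was found in them. Over the 250 bases before the start, a GC box occurred in 18 of the 32 promoters of the collagen genes (56.2%) and in 32.7% of all 32851 promoters, a CCAAT box in 31.2% and 33.8%, and TATAAA or TTTATA in 12.5% and 12.4%. These matches describe the letters only.

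Tumors of all classes together were first compared with normal skin. Col8a1, a chain of the short-chain collagen VIII, rose most, and the genes of collagen I (Col1a1 and Col1a2), of the restricted collagen IV chains (Col4a3, Col4a4 and Col4a6), of collagen XV (Col15a1) and of collagen XVI (Col16a1) fell. Of the 37 genes 5 were higher and 7 lower in the 15 tumors, where 17.7% of all genes were called higher and 18.0% lower. The median difference was -0.27 for the collagen genes and 0.02 for all genes on the log2 scale. By group, 3 of the 11 fibrillar genes were higher and 2 lower, 1 of the 8 basement membrane genes was higher and 4 were lower, 1 of the 3 short-chain genes was higher, 1 of the 9 fibril-associated genes was lower, and no gene of collagen VI or of the transmembrane collagens was called. The other genes called higher were the fibrillar Col11a1, Col24a1 and Col27a1 and Col18a1, whose product is the source of endostatin. The calls of Col11a1, Col18a1 and Col27a1 were each lost without any 1 of several samples, among them skins 1, 2, 3 and 5 (adjusted p of at most 0.0771, 0.0835 and 0.0908, limma), and that of Col16a1 without any 1 of the 5 skins (at most 0.0909).

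**Figure D1:**
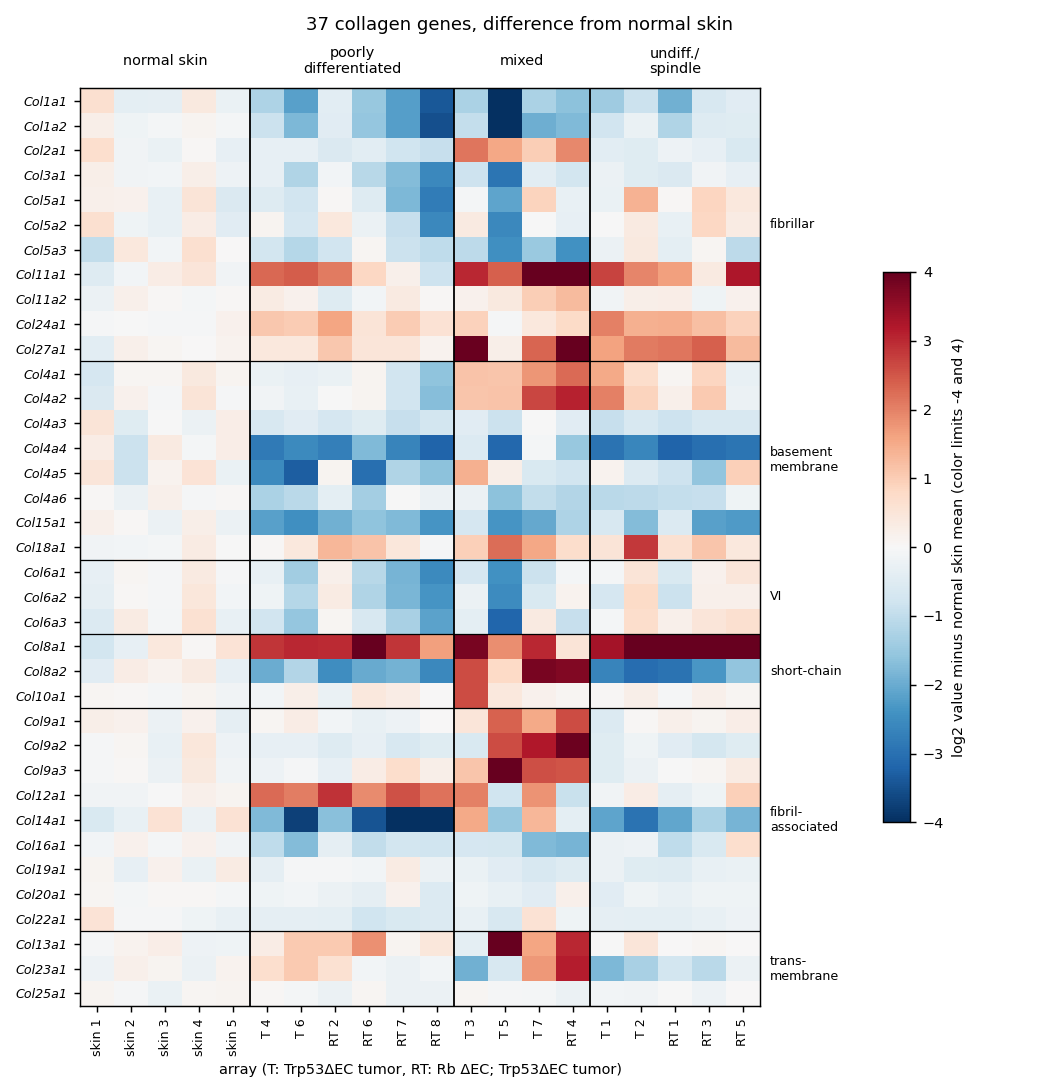
Each cell is the log2 value of a collagen gene on an array minus that gene's mean in normal skin, with genes in rows by collagen group and arrays in columns by class, and a color scale that runs from blue (below skin) to red (above skin). Col8a1 is red in most tumors, Col4a4 and Col15a1 are blue in most, and Col2a1 and Col8a2 are red in the 4 mixed tumors.

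Col8a1 lies on chromosome 16 (57624256 to 57754737, GRCm38.p6) and encodes a chain of the network beneath endothelia. In the 5 skins its log2 values were 5.58, 5.99, 6.74, 6.37 and 6.86, and in the 15 tumors they ran from 6.82 to 11.41. All tumors lay above every skin except Rb ΔEC; Trp53ΔEC tumor 4, a mixed tumor, at 6.82. The log2 fold change was 3.21 ± 0.54 (SE, adjusted p = 0.000101, limma), a 9.22-fold difference. Its other 2 probesets were higher by 1.79 and 1.77 on the log2 scale (adjusted p = 0.0127 and 0.00652 over all probesets, limma).

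Col1a1 and Col1a2 encode the chains of collagen I, the main fiber of dermis. Col1a2 read 14.65, 14.23, 14.32, 14.52 and 14.32 in the skins and between 10.43 and 14.14 in the tumors, so that the groups did not overlap. It fell by 1.49 ± 0.48 on the log2 scale (SE, adjusted p = 0.0201, limma), and without skin 1 the adjusted p was 0.0503. Col1a1 fell by 1.64 ± 0.47 (SE, adjusted p = 0.00918, limma), from 13.83 ± 0.48 (SD, n = 5) to 12.19 ± 1.04 (SD, n = 15). The 2 probesets of Col1a1 disagreed: the second had a difference of -0.04 and was not called, and with the median of both probesets Col1a1 was not called (adjusted p = 0.0532, limma). Col3a1 was not called by its kept probeset (-0.918), and its second probeset had a difference of -1.718. It was called lower with the median of its probesets (adjusted p = 0.0452, limma) and with each array centred on its median (0.0434, limma). The methods' t-test called it too (adjusted p = 0.00498).

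Col15a1, a collagen of the basement membrane zone of vessels and muscle, read 9.78, 9.62, 9.34, 9.80 and 9.34 in the skins, above the highest tumor at 9.02. It fell by 1.73 ± 0.29 on the log2 scale (SE, adjusted p = 0.000108, limma). Within the undifferentiated/spindle class the 2 spindle cell carcinomas read 9.02 and 8.95 and the 3 undifferentiated carcinomas 7.83, 7.39 and 7.32.

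The genes Col4a3 and Col4a4 lie head to head on chromosome 1, and their products join with Col4a5 in the network of specialised basement membranes. Col4a4 read 7.90, 6.76, 7.97, 7.54 and 7.89 in the skins and between 4.41 and 7.54 in the tumors. Only the mixed tumors Trp53ΔEC 3 and 7, at 7.06 and 7.54, reached the range of skin. The difference was -2.38 ± 0.44 on the log2 scale (SE, adjusted p = 0.000255, limma). Col4a3 fell by 0.62 and Col4a6 by 0.84, with adjusted p values of 0.00219 and 0.00621 (limma). Col4a3 lay below the array median on every array, as did Col11a2, Col24a1 and Col19a1, so that their small differences are between dim probesets.

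**Figure D2:**
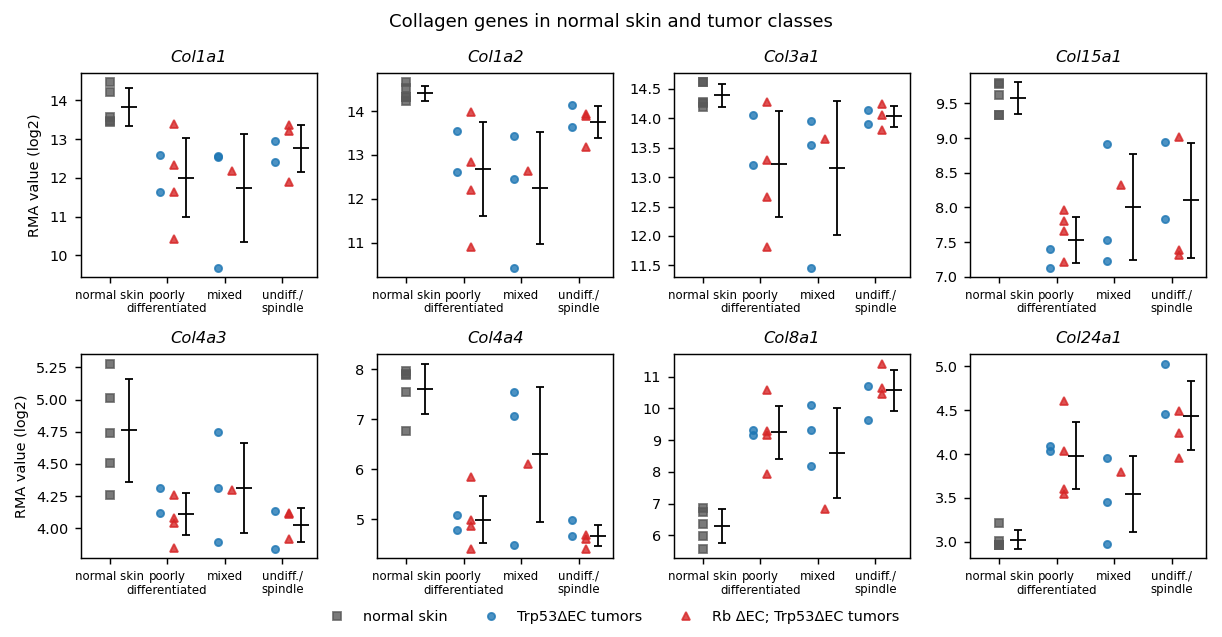
Log2 RMA values of 8 collagen genes in each sample by class, with squares for skin, circles for Trp53ΔEC tumors and triangles for Rb ΔEC; Trp53ΔEC tumors; bars give the class mean and SD. Col1a2 and Col15a1 of every tumor lie under all skins, and Col8a1 is highest in undifferentiated/spindle carcinomas, at 10.57 ± 0.64 (SD, n = 5).

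Each class was then set against skin in a fit of the 4 classes, and these comparisons share the same 5 skins. Poorly differentiated carcinomas had 14 collagen genes lower and 3 higher, against 19.6% and 19.2% of all genes. Of the lower ones 4 were fibrillar and 5 belonged to the basement membrane group. The largest decrease was that of Col14a1, a fibril-associated collagen that binds decorin, which read 9.47, 9.76, 10.64, 9.82 and 10.66 in skin and 4.98, 6.48 and 8.39 as lowest, median and highest of the 6 tumors. It fell by 3.29 ± 0.60 on the log2 scale (SE, adjusted p = 0.000268, limma). The differences were -2.62 for Col4a4, -2.05 for Col15a1, -2.02 for Col8a2, -1.93 for Col4a5, -1.82 for Col1a1 and -1.73 for Col1a2 (limma), and smaller decreases were called for Col3a1, Col6a1, Col16a1, Col4a6, Col4a3, Col2a1 and Col22a1. The second probeset of Col1a1 averaged 9.95 in these tumors and 9.737 in skin. Col6a1 was lost without any 1 of 8 samples (adjusted p up to 0.0928, limma), Col4a6 of 7 (0.0892) and Col2a1 of 5 (0.116). Col3a1 was lost without any 1 of 4 (0.0727) and Col22a1 of 3 (0.0961). The 3 that rose were Col8a1, Col12a1 and Col24a1.

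Undifferentiated/spindle carcinomas had 7 collagen genes lower and 5 higher than skin, against 20.2% and 22.0% of all genes. The 7 called lower were Col4a4, Col8a2, Col14a1, Col15a1, Col4a6, Col4a3 and Col19a1. No fibrillar gene was among them, but the methods' t-test called Col1a1 (-1.06), Col1a2 (-0.65) and Col3a1 (-0.36) lower too, with adjusted p values of 0.0396, 0.0307 and 0.0436. Col8a1 read 10.45, 11.41, 10.64, 9.63 and 10.70 in these tumors, all above the skins, a log2 fold change of 4.26 ± 0.52 (SE, adjusted p = 3e-06, limma). Col8a2, which encodes the other chain of collagen VIII, read 4.03, 4.65, 5.39, 4.35 and 3.93, all below the skins at 6.52 to 7.34. It fell by 2.51 ± 0.45 on the log2 scale (SE, adjusted p = 0.000175, limma). The other genes called higher were Col11a1, Col18a1, Col24a1 and Col27a1. Col11a1 was lost without any 1 of skins 1, 2 and 5, Trp53ΔEC tumors 1 and 2 and Rb ΔEC; Trp53ΔEC tumor 5 (adjusted p up to 0.091, limma), Col18a1 without any 1 of skins 1, 2, 3 and 5, Trp53ΔEC tumor 2 and Rb ΔEC; Trp53ΔEC tumor 3 (up to 0.0969), and Col19a1 without any 1 of 10 samples (up to 0.127). The Actb 3′ to 5′ log2 difference, a measure of RNA quality, lay between 0.50 and 1.19 in skin and between 0.24 and 0.38 in these tumors, without overlap, and its part in the result was not tested.

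Mixed carcinomas had 13 collagen genes higher and 9 lower than skin, against 21.9% and 21.5% of all genes. The fibrillar Col11a1 rose by 4.25 ± 0.77 (SE), Col9a3 by 2.74 ± 0.46, Col8a2 by 2.73 ± 0.48, Col27a1 by 2.66 ± 0.53, Col8a1 by 2.298 ± 0.553 and Col9a2 by 2.28 ± 0.56 on the log2 scale, with adjusted p values of 0.000202, 9.2e-05, 0.000147, 0.000543, 0.00254 and 0.00277 (limma). Col13a1, Col4a2, Col9a1, Col2a1, Col4a1, Col18a1 and Col11a2 were the others called higher. The 9 called lower were Col1a2, Col1a1, Col5a3, Col15a1, Col4a4, Col16a1, Col3a1, Col4a6 and Col19a1. With the methods' t-test 2 were higher and 1 lower, Col2a1, Col4a1 and Col5a3, and the adjusted p was 0.0575 for Col11a1, 0.0800 for Col8a2 and 0.205 for Col9a2. Of the 37 genes 16 had their highest class mean in the mixed tumors, 14 in normal skin, 6 in undifferentiated/spindle and 1, Col12a1, in poorly differentiated carcinomas. The same order was not counted over all genes, so whether these counts are particular to collagen genes was not tested.

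Mixed tumors were also set against the other tumor classes, a pair of comparisons chosen after the data were seen. Genes of collagen II and IX (Col2a1, Col9a1, Col9a2 and Col9a3), of collagen VIII (Col8a2) and of collagen XI (Col11a1 and the dim Col11a2) were higher in mixed tumors than in both other classes. So were the fibril-associated Col14a1 and the basement membrane gene Col4a4. Against poorly differentiated carcinomas 13 collagen genes were higher and 3 lower, where 13.5% and 11.9% of all genes were called. Against undifferentiated/spindle carcinomas 10 were higher and 4 lower, where 9.15% and 10.2% were called. The Actb 3′ to 5′ log2 difference lay between 0.38 and 0.66 in mixed and between 0.24 and 0.38 in undifferentiated/spindle tumors. Its part in this comparison was not tested. The methods' t-test called 2 higher, Col2a1 and Col4a1, and 0 lower in the first of these comparisons and 0 in either direction in the second.

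Col2a1 encodes the chain of collagen II, the main fibril of cartilage, and lies on chromosome 15 (97975602 to 98004724). It read 8.29, 7.68 and 7.11 in Trp53ΔEC tumors 3, 5 and 7 and 8.05 in Rb ΔEC; Trp53ΔEC tumor 4. The other 11 tumors lay between 5.23 and 5.94 and the skins between 5.82 and 6.81, so all 4 mixed tumors were above every other sample. The difference from poorly differentiated carcinomas was 2.20 ± 0.21 (SE, adjusted p = 7.36e-07, limma) and that from undifferentiated/spindle carcinomas 2.04 ± 0.22 (SE, adjusted p = 7e-06, limma). With the methods' t-test the first was called and the second was not.

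Col8a2 read 9.58, 7.79 and 10.78 in Trp53ΔEC tumors 3, 5 and 7 and 10.67 in Rb ΔEC; Trp53ΔEC tumor 4. The other tumors lay between 3.93 and 5.82, below the skins, and the mixed tumors above them. Against poorly differentiated carcinomas Col8a2 was 26.9-fold higher, a log2 fold change of 4.75 ± 0.46 (SE, adjusted p = 7.01e-07, limma). The methods' t-test, which takes each class's own spread, did not call Col8a2 here. Its partner Col8a1 went the other way among tumor classes: it was lower in mixed than in undifferentiated/spindle carcinomas by 1.96 ± 0.55 on the log2 scale (SE, adjusted p = 0.0176, limma), and without Rb ΔEC; Trp53ΔEC tumor 4 the adjusted p was 0.068.

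The collagen IX chains coat collagen II fibrils. Col9a2 read 7.35, 7.93 and 8.65 in Trp53ΔEC tumors 5 and 7 and Rb ΔEC; Trp53ΔEC tumor 4, but 4.14 in Trp53ΔEC tumor 3, within the range of the other tumors at 4.04 to 4.57. Col9a3 read 6.54, 10.22, 8.02 and 7.95 in Trp53ΔEC tumors 3, 5 and 7 and Rb ΔEC; Trp53ΔEC tumor 4, above every other sample, the highest of which was a poorly differentiated tumor at 6.14. Their log2 fold changes over poorly differentiated carcinomas were 2.72 ± 0.54 and 2.63 ± 0.44 (SE, adjusted p = 0.00105 and 0.000246, limma). Neither was called by the methods' t-test. Trp53ΔEC tumor 3 had the lowest Col9a1, Col9a2 and Col9a3 values of the mixed tumors and the highest Col2a1.

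Col9a1 was kept by a probeset that read 6.18, 8.03, 7.20 and 8.28 in mixed tumors 3, 5 and 7 of Trp53ΔEC and 4 of Rb ΔEC; Trp53ΔEC. A second probeset of the gene, dimmer on average, read 6.61, 11.77, 9.97 and 11.40 in these tumors and between 3.50 and 5.45 in all other samples. Its log2 fold change over poorly differentiated carcinomas was 5.89, against 1.78 for the kept probeset. Both were called.

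Col11a1, the fibrillar chain that nucleates thin fibrils, read 8.11, 7.49, 10.89 and 10.85 in the mixed tumors in the same order, 4.27, 6.54 and 7.52 as lowest, median and highest of the poorly differentiated tumors, and 6.73, 5.46, 8.33, 7.78 and 7.03 in the undifferentiated/spindle tumors. The mixed tumors overlapped with both classes. The differences were 3.08 ± 0.74 and 2.27 ± 0.77 (SE, adjusted p = 0.00475 and 0.0444, limma), and the second was lost when any 1 of 11 samples was left out (adjusted p up to 0.153, without Trp53ΔEC tumor 7, limma). By the methods' t-test neither difference was called.

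The basement membrane genes Col4a1 and Col4a2, which lie head to head on chromosome 8, were higher in mixed than in poorly differentiated tumors by 2.101 ± 0.354 and 2.47 ± 0.46 on the log2 scale (SE, adjusted p = 0.000276 and 0.000662, limma). Of this pair the methods' t-test called Col4a1 and not Col4a2. Col4a2 read 11.45, 11.47, 13.02 and 13.43 in the mixed tumors and 8.65, 10.12 and 10.44 as lowest, median and highest of the poorly differentiated ones, without overlap. Col13a1, a transmembrane collagen, varied among mixed tumors from 4.96 in Trp53ΔEC tumor 3 to 9.63 in Trp53ΔEC tumor 5. Col14a1 was 11.5-fold higher in mixed than in poorly differentiated tumors. Col12a1, Col5a3 and Col19a1 were lower, but Col12a1 was lost with the median of its probesets (adjusted p = 0.0546, limma), Col5a3 without any 1 of Trp53ΔEC tumor 5 and Rb ΔEC; Trp53ΔEC tumors 4 and 6 (up to 0.091) and Col19a1 without any 1 of 14 samples (up to 0.138).

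**Figure D3:**
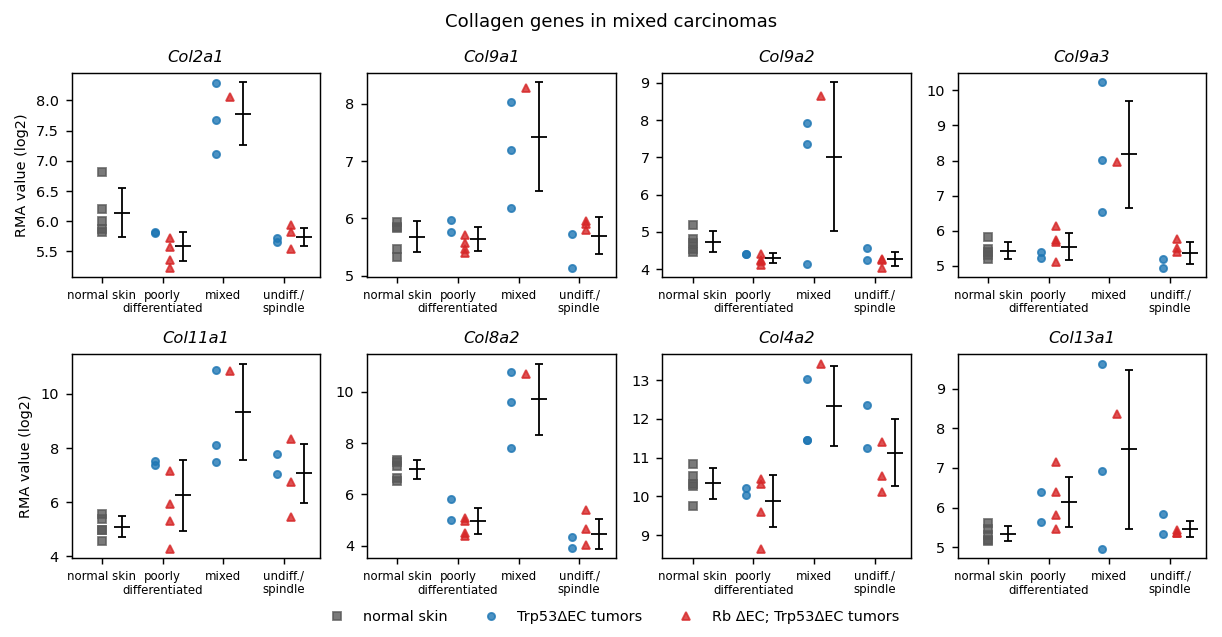
Log2 RMA values of 8 collagen genes by class, with squares for skin, circles for Trp53ΔEC tumors and triangles for Rb ΔEC; Trp53ΔEC tumors; bars give the class mean and SD. All 4 mixed tumors exceed every other sample for Col2a1 and Col8a2, whereas 1 of the 4 has Col9a2 at 4.14 and Col13a1 at 4.96.

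The loss of differentiation was followed by setting the 5 undifferentiated/spindle against the 6 poorly differentiated carcinomas. Col12a1 and the transmembrane Col23a1 fell, and Col27a1, Col6a3, Col5a1, Col8a1 and Col4a1 rose, so that 5 of the 37 genes were higher and 2 lower, against 12.7% and 9.90% of all genes. The median difference of the collagen genes was 0.50 on the log2 scale, beside 0.02 for all genes, and 26 of the 37 differences were above 0. All 11 fibrillar differences were above 0, with 2 called, as were all 3 of collagen VI, with 1 called. The genes were read in the same tumors, so their directions are not independent.

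Col12a1, a collagen of the fibril surface, lies on chromosome 9 (79598987 to 79721141). It read 9.18, 9.51 and 10.18 as lowest, median and highest of the poorly differentiated carcinomas and 6.92, 7.12, 8.23, 7.14 and 7.58 in the undifferentiated/spindle carcinomas, which did not overlap with them. The 5 skins lay between 7.14 and 7.47. The difference between the classes was -2.19 ± 0.25 on the log2 scale (SE, adjusted p = 8.5e-05, limma), a 4.58-fold decrease. Poorly differentiated carcinomas were 4.95-fold above skin (adjusted p = 0.000398, limma). The mixed tumors fell on both sides, at 9.31 and 9.07 in Trp53ΔEC tumors 3 and 7 and at 6.48 and 6.39 in Trp53ΔEC tumor 5 and Rb ΔEC; Trp53ΔEC tumor 4. Of 4 probesets of Col12a1 a second had the same decrease, of 2.47, and the other 2 had differences near 0.

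Col27a1, a fibrillar collagen of developing cartilage, read 7.22, 7.53 and 8.15 as lowest, median and highest in poorly differentiated and 9.23, 9.47, 8.33, 8.70 and 9.16 in undifferentiated/spindle carcinomas, without overlap. It rose by 1.40 ± 0.22 on the log2 scale (SE, adjusted p = 0.000776, limma). Col6a3, a chain of the beaded filaments of collagen VI, rose by 1.44 ± 0.34 (SE, adjusted p = 0.0101, limma), from 11.11 ± 0.77 (SD, n = 6) to 12.54 ± 0.32 (SD, n = 5). Its companions Col6a1 and Col6a2 had differences of 1.27 and 0.98 and were not called.

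Col5a1, whose product starts and limits the fibrils of collagen I, rose by 1.55 ± 0.49 (SE), Col8a1 by 1.33 ± 0.41 and Col4a1 by 1.11 ± 0.36, with adjusted p values of 0.0397, 0.0390 and 0.0455 (limma). These 3 calls lie near the threshold. Col5a1 was lost without any 1 of Trp53ΔEC tumors 2 and 6 and Rb ΔEC; Trp53ΔEC tumors 1, 3, 5 and 7 (adjusted p up to 0.0957, limma), Col8a1 without any 1 of Trp53ΔEC 2, 4 and 6 and Rb ΔEC; Trp53ΔEC 1, 2, 3, 5, 7 and 8 (up to 0.0943), and Col4a1 without any 1 of Trp53ΔEC 1, 2, 4 and 6 and Rb ΔEC; Trp53ΔEC 2, 3, 7 and 8 (up to 0.102). Col23a1 read 7.32, 7.79 and 8.60 as lowest, median and highest of the poorly differentiated carcinomas and 6.81, 6.46, 7.31, 5.75 and 6.26 in the undifferentiated/spindle ones, with a difference of -1.34 ± 0.31 (SE, adjusted p = 0.00894, limma). The Actb 3′ to 5′ log2 difference also moved with these classes, from 0.42 to 0.82 in poorly differentiated and from 0.24 to 0.38 in undifferentiated/spindle carcinomas. With this difference as a covariate Col12a1, Col27a1 and Col6a3 were still called, whereas Col5a1, Col8a1, Col4a1 and Col23a1 were not (adjusted p = 0.134, 0.476, 0.175 and 0.129, limma).

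**Figure D4:**
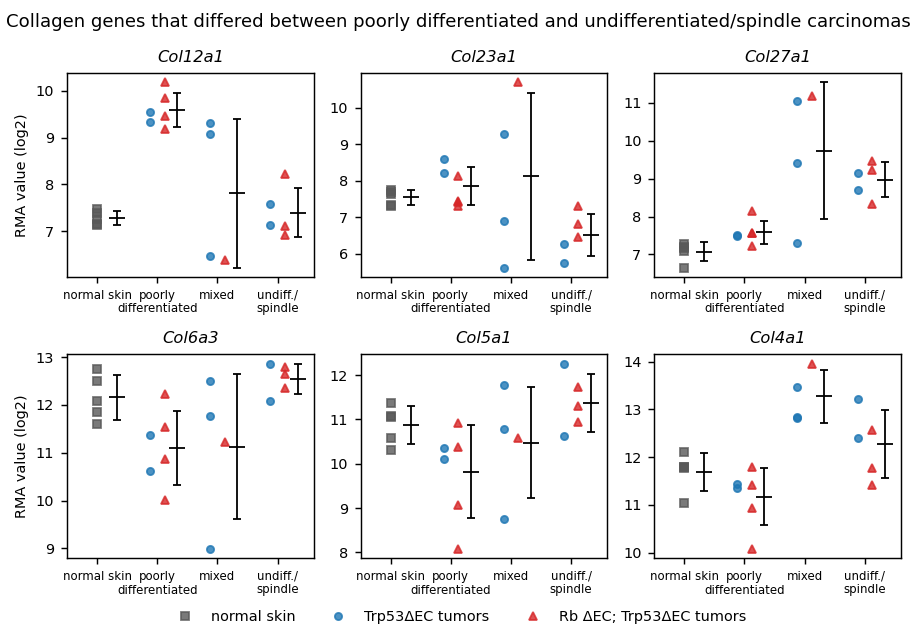
Log2 RMA values of 6 collagen genes by class, with squares for skin, circles for Trp53ΔEC tumors and triangles for Rb ΔEC; Trp53ΔEC tumors; bars give the class mean and SD. Col12a1 is highest in poorly differentiated carcinomas, at 9.59 ± 0.36 (SD, n = 6), and Col27a1 is above them in all 5 undifferentiated/spindle carcinomas.

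The genotypes were compared over all 15 tumors to ask whether the added loss of Rb changed the collagen genes. None of the 37 was called higher or lower in Rb ΔEC; Trp53ΔEC tumors, by limma or by the methods' t-test, and none had an unadjusted p under 0.05 by limma. Of all genes 0.0110% were called higher and 0.0220% lower. The smallest p was that of Col4a6, with a difference of 0.39 ± 0.24 (SE, adjusted p = 0.966, limma). Among the widest gaps was that of Col11a1, at 6.75 ± 2.07 (SD, n = 8) in Rb ΔEC; Trp53ΔEC and 8.03 ± 1.30 (SD, n = 7) in Trp53ΔEC tumors, a difference of -1.28 ± 0.86 (SE, adjusted p = 0.966, limma). The genotypes differ in their number of mixed tumors, 3 of 7 and 1 of 8, and no call was made either with class as a covariate or among poorly differentiated carcinomas alone.

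The difference by grade was tested for a dependence on genotype in the 11 tumors that were not mixed. No collagen gene was called, as was 0% of all genes, and 2 had an unadjusted p under 0.05. Col23a1 fell by 2.40 with grade in Trp53ΔEC and by 0.72 in Rb ΔEC; Trp53ΔEC tumors on the log2 scale, and the difference of 1.68 ± 0.44 (SE) between the genotypes did not pass (adjusted p = 0.517, limma). Col9a1 had differences of -0.43 and 0.34 (adjusted p = 0.628, limma).

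Chains that are wound into the same molecule were then compared across the 15 tumors, after the mean of each class was subtracted so that the classes did not drive the relation. For 8 pairs the p-values come from two-sided permutation tests with 100000 resamples within classes, adjusted over the pairs. Col6a1 and Col6a2 gave Pearson r = 0.974 and Spearman rho = 0.982, and Col4a1 and Col4a2 gave 0.967 and 0.936, all with permutation p = 1e-05, the smallest they can give, and adjusted p = 4e-05. Without the 2 tumors farthest from the median r was 0.951 and 0.957. Col1a1 and Col1a2 gave r = 0.948 (permutation p = 2e-05, adjusted p = 5.33e-05) and rho = 0.886 (p = 0.00056, adjusted p = 0.00112), and r = 0.839 without those 2 tumors.

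Col5a1 and Col5a2 gave r = 0.899 (permutation p = 0.00037, adjusted p = 0.00074) and rho = 0.850 (p = 0.00048, adjusted p = 0.00112), and r = 0.694 without the 2 farthest tumors. Col6a1 and Col6a3 gave r = 0.790 (permutation p = 0.00439, adjusted p = 0.00702) and rho = 0.750 (p = 0.00679, adjusted p = 0.0109). Without those 2 tumors r was 0.523 (permutation p = 0.131), which did not pass in the fewer tumors left. Col4a3 and Col4a4 gave r = 0.789 (permutation p = 0.0168, adjusted p = 0.0192) and rho = 0.711 (p = 0.00915, adjusted p = 0.0122). Their r was 0.426 (permutation p = 0.171) without the 2 farthest tumors, which did not pass either. Col4a5 and Col4a6 gave r = 0.699 (permutation p = 0.0109, adjusted p = 0.0145) and rho = 0.586 (p = 0.0451, adjusted p = 0.0516), with r = 0.633 without them. Col9a1 and Col9a2 gave r = 0.788 (permutation p = 0.0994, adjusted p = 0.0994) and rho = 0.449 (p = 0.149, adjusted p = 0.149), with r = -0.31 without them. The points of a pair share tumor, array and normalization. Chains of different molecules were not compared, so whether these relations are particular to partner chains was not tested.

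**Figure D5:**
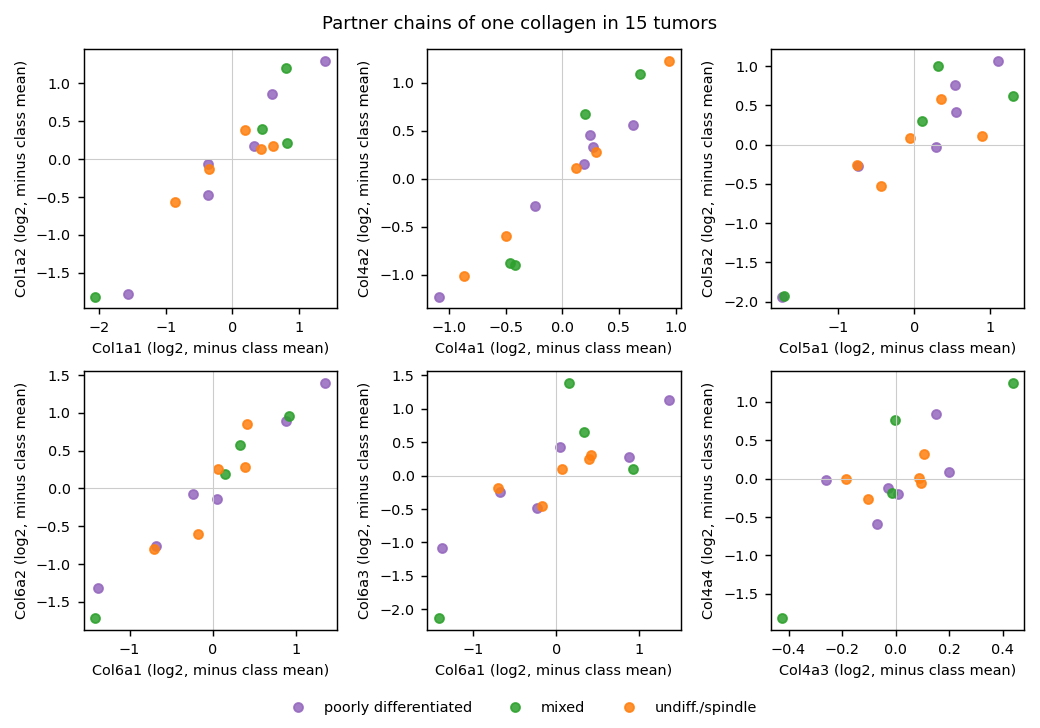
Log2 values of partner chains in 15 tumors after subtraction of the class mean, with a color for each class. Col4a1 with Col4a2 and Col6a1 with Col6a2 lie close to a line (r = 0.967 and 0.974), whereas in the panel of Col4a3 and Col4a4 a pair of mixed tumors lies far from the rest.

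Col5a2, Col6a2, Col10a1, Col20a1 and Col25a1 were called in none of these comparisons by limma. Col10a1, the collagen of hypertrophic cartilage, read 6.87 in Trp53ΔEC tumor 3 and between 3.98 and 4.68 in the other 19 samples. For Col25a1 the choice of probeset decided the outcome: the kept probeset had a difference of -0.07 between mixed tumors and skin, but the second read 8.82, 5.32, 6.24 and 7.31 in the mixed tumors 3, 5 and 7 of Trp53ΔEC and 4 of Rb ΔEC; Trp53ΔEC and between 3.28 and 5.04 elsewhere, a log2 fold change of 3.20 over skin that was called. For Col23a1 the kept probeset had a difference of -0.06 between all tumors and skin, and its other probesets had 0.91 and 1.02. By grade the same probesets had -1.34, -1.30 and -1.30. In all 25 of the 37 genes had several probesets.

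Genes that process collagen moved with grade. Of 27 measured genes of synthesis and crosslinking 17 were higher and 1 lower in undifferentiated/spindle than in poorly differentiated carcinomas, with a median difference of 1.05 beside 0.02 for all genes, of which 12.7% were called higher and 9.90% lower. The largest were the lysyl oxidase Loxl3 (3.33 ± 0.40, SE), the propeptidase enhancer Pcolce (2.65 ± 0.51), the lysyl hydroxylase Plod2 (2.44 ± 0.35) and the oxidase Loxl1 (2.36 ± 0.56), and P3h2, a prolyl hydroxylase of basement membrane collagen, fell by 2.42 ± 0.27, with adjusted p values of 0.000129, 0.00327, 0.000418, 0.0102 and 6.85e-05 (limma). These classes also differed in the Actb 3′ to 5′ log2 difference. Its part in the grade differences of this list and of the lists that follow was not tested. Against skin the same list had 4 of 27 genes higher and 2 lower in all tumors, where 17.7% and 18.0% of all genes were called.

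Of 13 proteoglycans and glycoproteins that bind fibrils none was higher and 8 were lower in tumors than in skin, where 18.0% of all genes were lower, and their median was -2.29. Differences were -4.94 ± 0.39 (SE) for tenascin X (Tnxb), -4.21 ± 0.82 for osteoglycin (Ogn), -4.004 ± 0.835 for dermatopontin (Dpt), -3.695 ± 0.482 for Prelp and -2.80 ± 0.95 for decorin (Dcn), with adjusted p values of 5.15e-09, 0.000402, 0.000814, 5.18e-06 and 0.0269 (limma). By grade 2 of the 13, Thbs2 and Bgn, were higher and none lower, a share near the 12.7% of all genes called higher. Of 9 measured receptors and uptake genes 3 were higher and 2 lower by grade, beside 12.7% and 9.90% of all genes: the collagen receptor Ddr2 (3.17), the uptake receptor Mrc2 (2.07) and Lair1 (1.96) rose, whereas the epithelial receptor Ddr1 (-2.58) and Itga2 (-0.93) fell on the log2 scale.

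Of 5 measured collagen genes outside the list, Col17a1, the hemidesmosomal collagen of basal keratinocytes, fell by 6.40 ± 0.51 with grade (SE, adjusted p = 6.84e-06, limma). Col26a1 was higher in mixed than in poorly differentiated tumors by 1.88 ± 0.34 (SE, adjusted p = 0.000513, limma). Col7a1, the anchoring fibril collagen, was higher in tumors than in skin by 1.01 ± 0.34 (SE, adjusted p = 0.0258, limma). In all 2 of the 5 were called higher and 1 lower in tumors than in skin, beside 17.7% and 18.0% of all genes. By grade 1 was lower and 0 higher, beside 9.90% and 12.7%. Between mixed and poorly differentiated tumors 1 was higher and 1 lower, beside 13.5% and 11.9%.

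Markers of other cell types were counted in the same comparisons, where 18.0% of all genes were lower in tumors than in skin. For the markers the level of a list is the log2 of the summed linear values. Skeletal muscle markers were lower in tumors for 8 of 8 genes, with 16.54 to 17.11 in skin and 8.32 to 12.49 in tumors, and adipocyte markers for 6 of 6, with 15.01 to 15.32 and 7.62 to 12.95. Fibroblast markers were lower for 5 of 10, with 13.71 to 14.17 in skin, 10.57 to 13.27 in poorly differentiated, 11.55 to 13.49 in mixed and 13.38 to 14.26 in undifferentiated/spindle tumors. Smooth muscle and pericyte markers were lower in tumors for 4 of 8, endothelial markers for 2 of 8, Schwann cell markers for 1 of 4 and macrophage markers for 1 of 6, and the last 3 of these shares are near that of all genes. By class, macrophage markers were lower than skin for 4 of 6 in poorly differentiated and 5 of 6 in mixed tumors. In mixed tumors 1 was higher. Endothelial markers were lower for 4 of 8 and 5 of 8, beside 19.6% and 21.5% of all genes. In undifferentiated/spindle tumors 1 macrophage marker was lower and 1 higher. There 1 endothelial marker was lower and 3 were higher, beside 20.2% and 22.0% of all genes.

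By grade, keratinocyte markers fell for 8 of 8 genes, from 15.80 to 16.22 in poorly differentiated down to 10.34 to 12.84 in undifferentiated/spindle tumors, beside 15.42 to 15.65 in skin. Endothelial markers rose for 6 of 8 and macrophage markers for 3 of 6, beside 12.7% of all genes, and 2 of 4 Schwann cell markers fell, beside 9.90%. The 2 of 10 fibroblast markers called higher and the 1 of 8 smooth muscle and pericyte markers called lower are near these shares.

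In mixed tumors keratinocyte markers summed to 10.87 to 14.73 and were lower than in poorly differentiated tumors for 6 of 8 genes, beside 11.9% of all genes. Against undifferentiated/spindle tumors 4 of the 8 were higher, beside 9.15%. Macrophage markers summed to 10.42 to 11.55 in mixed and 13.39 to 14.15 in undifferentiated/spindle tumors, with 5 of 6 lower, and endothelial markers to 9.50 to 10.28 and 10.45 to 11.60, with 5 of 8 lower, beside 10.2% of all genes. Schwann cell markers ranged from 7.80 to 11.44 in mixed tumors, with 1 of 4 higher and 1 lower than in poorly differentiated tumors and 1 of 4 higher than in undifferentiated/spindle tumors, where they summed to 8.05 to 8.42.

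The 6 chondrocyte markers summed to 9.58 to 12.11 in mixed tumors, beside 8.73 to 9.93 in skin and 8.09 to 9.59 in the other tumors. Against skin 2 of the 6 were called higher, Comp (2.21 ± 0.81, SE) and Matn3 (0.51 ± 0.17), with adjusted p values of 0.0344 and 0.0245 (limma). Against poorly differentiated tumors 5 of the 6 differences were above 0 and 1 was called, Comp (2.55 ± 0.78, SE, adjusted p = 0.0221, limma), and against undifferentiated/spindle tumors none was. Of all genes 21.9% were called higher against skin, 13.5% against poorly differentiated and 9.15% against undifferentiated/spindle tumors. The chondrocyte counts are near these shares. Hapln1 read 3.13 to 9.11 in mixed tumors and 3.15 to 3.70 in skin, and Sox9 8.01 to 10.51 and 8.20 to 9.72. Acan read 4.81 to 6.98 in mixed tumors and 5.35 to 5.69 in skin, and Matn1 3.01 to 3.26 and 3.12 to 3.49. The part of these cells in the collagen differences was not tested.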

How the data were processed

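RMA was applied by the authors to Affymetrix MOE430 2.0 scans (version not given in the sources used here), which gave the deposited log2 values. The 37 genes, the gene and marker lists, the pairs of chains and the tests were chosen with earlier results of these data known. Of 45101 probesets, 64 controls were left out, 34945 of the others had 1 gene symbol and 932 several. The probeset with the highest mean was kept for each of 18193 genes. Groups came from the labels' genotype and histological subtype. Each comparison used limma 3.58.1 (lmFit, eBayes) in R 4.3.3, with Benjamini-Hochberg adjustment over all genes, tested on simulated data. Correlations used scipy 1.17.1 and numpy 2.4.6 in Python 3.11.15, and figures matplotlib 3.10.9. All 37 genes were named, with full statistics for up to 6 per comparison and those plotted, and from each other list up to 5 genes, past the test first and by size. The alternatives were the median of a gene's probesets, centring, quantile normalization, a filter on genes whose highest value was under 6, all probesets, robust eBayes, the methods' t-test, a replicate block, covariates and each sample left out. Protein sequences were not used here.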

Additional observations from a re-analysis of the deposited data

Results flagged for a closer look

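Each collagen gene was examined for a sample that stood apart from its group by Dixon's criterion, in normal skin, in each tumor class and in each genotype. Chance marks about 1 in 20 groups, and 25 of the 222 examined (11.3%) were marked. Values are log2 RMA values, beside the range of the other samples of the group.

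Rb ΔEC; Trp53ΔEC tumor 4, the mixed tumor of its genotype, stood apart from the other 7 Rb ΔEC; Trp53ΔEC tumors in 7 genes. It was high for Col2a1 at 8.05 (others 5.23 to 5.94), Col8a2 at 10.67 (4.03 to 5.39), Col9a1 at 8.28 (5.40 to 5.95), Col9a2 at 8.65 (4.04 to 4.40), Col9a3 at 7.95 (5.11 to 6.14) and Col23a1 at 10.69 (6.46 to 8.14). It was low for Col5a3 at 6.89 (8.24 to 9.39). For Col9a2 the gap to the nearest other tumor was 0.922 of the whole range.

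Trp53ΔEC tumor 5, also mixed, was low for Col1a1 at 9.68 among mixed tumors (12.18 to 12.56) and among Trp53ΔEC tumors (11.64 to 12.96). It was low for Col3a1 at 11.46 (13.55 to 13.96 among mixed, 13.20 to 14.15 among Trp53ΔEC tumors) and for Col5a2 at 9.79 (11.68 to 12.72 among Trp53ΔEC tumors), and high for Col13a1 at 9.63 (4.96 to 6.91 among Trp53ΔEC tumors). Trp53ΔEC tumor 3 was high for Col10a1 at 6.87 among mixed tumors (4.33 to 4.68) and among Trp53ΔEC tumors (4.15 to 4.68). Trp53ΔEC tumor 7 was high among Trp53ΔEC tumors for Col11a1 at 10.89 (7.03 to 8.11) and Col22a1 at 6.14 (4.93 to 5.27).

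Among undifferentiated/spindle carcinomas Trp53ΔEC tumor 2 was high for Col18a1 at 11.95 (9.54 to 10.23) and Col13a1 at 5.83 (5.33 to 5.43), Trp53ΔEC tumor 1 low for Col9a1 at 5.14 (5.73 to 5.95) and Rb ΔEC; Trp53ΔEC tumor 5 high for Col4a6 at 6.61 (5.71 to 5.86). Among poorly differentiated carcinomas Rb ΔEC; Trp53ΔEC tumor 6 was high for Col5a3 at 9.38 (8.17 to 8.56) and Rb ΔEC; Trp53ΔEC tumor 2 for Col27a1 at 8.15 (7.22 to 7.56). Among the skins, skin 5 was high for Col24a1 at 3.21 (2.97 to 3.01) and skin 4 for Col18a1 at 9.45 (8.98 to 9.10).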

How the results depend on the processing

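With the methods' t-test, which takes each class's own spread, the 13 higher and 9 lower collagen genes of mixed tumors against skin became 2 and 1, the 13 and 3 against poorly differentiated carcinomas 2 and 0, and the 10 and 4 against undifferentiated/spindle carcinomas 0 and 0. It also gave 11 lower genes in tumors against skin, 2 higher by grade, 9 lower in poorly differentiated and 12 lower in undifferentiated/spindle carcinomas against skin. Centring each array and leaving out the mixed tumors, the latter chosen after the data were seen, each gave 11 lower genes in tumors, the median of the probesets 1 lower gene in mixed against poorly differentiated tumors, and the Actb covariate 1 lower gene by grade. Centring changed the split of all genes in tumors from 3226 higher and 3268 lower to 2579 and 4234, and moved the median of all genes from 0.001 to -0.104 in poorly differentiated and from -0.005 to -0.12 in mixed tumors against skin. Signs turned for Col25a1 in mixed tumors with the median of the probesets (1.56, adjusted p = 8.86e-05, limma) and, without mixed tumors, for Col2a1 (-0.49) and Col9a2 (-0.45) in tumors against skin.

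When each sample was left out in turn, tumors against skin gave 2 to 5 higher genes (2 without skin 1, 2, 3 or 5, 3 without Trp53ΔEC 7 or Rb ΔEC; Trp53ΔEC 3) and 6 to 9 lower. Grade gave 2 to 6 higher (2 without Trp53ΔEC 2 or 6 or Rb ΔEC; Trp53ΔEC 3 or 7, 3 without Rb ΔEC; Trp53ΔEC 1 or 8) and 2 lower each time. Undifferentiated/spindle carcinomas against skin gave 3 to 5 higher (3 without skin 1, 2 or 5 or Trp53ΔEC 2), mixed against poorly differentiated tumors 1 to 3 lower (1 without Trp53ΔEC 5 or Rb ΔEC; Trp53ΔEC 4 or 6), and mixed against undifferentiated/spindle 6 to 11 higher (6 without Trp53ΔEC 7) and 2 to 5 lower (2 without Rb ΔEC; Trp53ΔEC 4). Of the genes called, those called under every alternative were 6 of 12 for tumors against skin, 2 of 7 by grade (Col12a1 and Col27a1), 11 of 17 for poorly differentiated, 3 of 22 for mixed and 9 of 12 for undifferentiated/spindle carcinomas against skin. For mixed tumors they were 2 of 16 against poorly differentiated and 0 of 14 against undifferentiated/spindle carcinomas. The labels do not say whether the replicate numbers of the titles pair the samples. Correlations of deviations from the group mean ran from -0.478 to 0.64 over 17 same-numbered pairs, of which 3 were the best match. Those deviations also hold the tumor class, so they cannot decide whether samples were paired. With a replicate block 5 genes were higher and 5 lower in tumors, and 0 differed by genotype.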
